A study of Mus musculus with 4 samples.

Results

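The sensory cluster of miR-183, miR-96 and miR-182 is a group of 3 microRNA (miRNA) hairpins on mouse chromosome 6, each of which gives a 5p and a 3p mature arm. All 6 arms, chosen by name, were listed among the 1326 mature miRNAs measured in retina, and all 6 had enough reads to be tested. Small RNA of gel-selected miRNA size was sequenced from mouse retina at E18.5, a late embryonic day. There were 2 libraries from Ptf1a-/- embryos, which lack both working copies of Ptf1a, and 2 from Ptf1a+/- embryos, which keep a single working copy. Ptf1a encodes a transcription factor that retinal progenitors need to form amacrine and horizontal cells. Every library carried at least 1 Ptf1a mutant allele, since no wild-type retina was included, and the labels state no strain, allele construct or number of pooled animals.

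The cluster is transcribed as a single primary RNA that Drosha and Dicer cut into separate hairpins and then into short duplexes. Of each duplex, the guide arm is loaded into Argonaute and represses mRNAs that pair with its seed (bases 2 to 8), while the passenger arm is mostly degraded; here the 5p arms are the guides. In mouse the cluster is known for its expression in sensory cells, among them photoreceptors, inner ear hair cells and sensory neurons, and seed mutations of miR-96 cause hearing loss. In the adult mouse retina its members are regulated by light and turn over quickly.

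The 3 guide arms are shown because their seeds differ by few bases, and the passenger arms because they are measured separately from the same hairpins. The mature sequences are those of RefSeq (build GRCm38.p6), written 5′ to 3′ with the seed in capitals.
mmu-miR-183-5p: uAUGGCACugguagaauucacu
mmu-miR-96-5p: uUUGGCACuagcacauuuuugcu
mmu-miR-182-5p: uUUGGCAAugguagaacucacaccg
mmu-miR-183-3p: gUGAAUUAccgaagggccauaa
mmu-miR-96-3p: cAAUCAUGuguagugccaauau
mmu-miR-182-3p: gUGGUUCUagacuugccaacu

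The guides share the 5 bases UGGCA inside their seeds. miR-96-5p and miR-182-5p have the same bases 2 to 7 (UUGGCA) and differ at base 8, while miR-183-5p shares its base 8 with miR-96-5p. No other miRNA among the 1120 listed names that have a RefSeq mature sequence (84.5% of those listed) has the same bases 2 to 7 as any of the 3 guides. Over the whole length, seed included, the closest pair is a different one. Counted from the 5′ end without gaps, miR-183-5p and miR-182-5p were equal at 18 of 22 bases (81.8%), miR-183-5p and miR-96-5p at 13 of 22 (59.1%), and miR-96-5p and miR-182-5p at 12 of 23 (52.2%). The passenger arms have 3 different seeds, and none of them is a guide seed.

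The hairpins lie on the minus strand of chromosome 6 (GRCm38), with Mir183 at chr6:30169668-30169737, Mir96 at chr6:30169446-30169551 and Mir182 at chr6:30165918-30165992. In the direction of transcription Mir183 comes first, Mir96 follows after a gap of 116 bp, and Mir182 follows after a gap of 3453 bp. Their RefSeq hairpins are shown with the 2 mature arms in capitals, because the arm comparisons below set the left arm against the right arm of each.
Mir183: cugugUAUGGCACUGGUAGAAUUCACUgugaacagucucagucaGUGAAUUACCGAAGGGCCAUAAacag
Mir96: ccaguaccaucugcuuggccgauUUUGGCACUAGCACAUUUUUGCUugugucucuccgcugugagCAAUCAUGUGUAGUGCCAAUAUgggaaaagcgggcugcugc
Mir182: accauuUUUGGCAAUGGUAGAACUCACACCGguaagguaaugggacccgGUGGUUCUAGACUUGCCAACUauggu

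In GENCODE M21 the 3 hairpins span 3820 bp between genes, inside no annotated host gene. The nearest gene is Rncr4, a long non-coding RNA on the plus strand, 3156 bp from Mir183. Nrf1, which encodes a transcription factor of nuclear genes for mitochondria, lies 12460 bp beyond Mir182 on the plus strand. Ube2h, which encodes a ubiquitin-conjugating enzyme, lies 41552 bp away on the minus strand.

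The libraries held 3658490 and 3917069 listed miRNA counts for Ptf1a-/- retina, against 3647145 and 4385834 for Ptf1a+/- retina (replicate 1 before replicate 2, here and throughout). At these depths a count of 0 allows up to 0.684 to 0.823 CPM (counts scaled to a common library total; 3 counts, counting error only), far under the level of any cluster arm. The spread was unequal between the genotypes. The Ptf1a-/- pair differed with a biological coefficient of variation of 22.6% over miRNAs, against 1.39% for the Ptf1a+/- pair. Ptf1a-/- replicate 2 also stood apart in its TMM scaling factor, which was 0.829, against 1.06 to 1.07 in the other libraries. The labels do not say whether libraries come from separate animals, so the p-values speak only of the spread among the libraries at hand, and this may be technical. Ptf1a mRNA is not measured by small RNA sequencing, so the genotype labels were not checked against it. Markers of neural retina were abundant: the list of miR-9, miR-124, miR-181a and miR-181b arms summed to 249000 and 317000 CPM in Ptf1a-/- libraries, against 234000 and 234000 CPM in Ptf1a+/- libraries. Lens, blood, vessel and muscle markers each summed to between 49.2 and 615 CPM per library.

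The guides were among the most abundant miRNAs of the E18.5 retina. By mean level over the 4 libraries, miR-182-5p ranked 3, miR-183-5p ranked 5 and miR-96-5p ranked 26 of 584 tested miRNAs. miR-182-5p had 322724 and 469143 reads in Ptf1a-/- libraries, against 345328 and 407901 in Ptf1a+/- libraries. miR-183-5p had 216879 and 266366 reads in Ptf1a-/- libraries, against 192938 and 230404 in Ptf1a+/- libraries. miR-96-5p had 17882 and 18944 reads in Ptf1a-/- libraries, against 25896 and 30775 in Ptf1a+/- libraries. In each library the order was the same, with miR-182-5p above miR-183-5p and miR-96-5p far below both. Each read is a whole mature arm, so no scaling by length is needed, but ligation and size selection favour some sequences, and a difference in level between arms may in part be one of capture.

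The passenger arms were present at a small share of the guides. In total they made up 0.274 and 0.137% of the cluster's reads in Ptf1a-/- libraries, against 0.203 and 0.212% in Ptf1a+/- libraries. miR-182-3p, the most abundant of them, had 994 and 667 reads in Ptf1a-/- libraries, against 768 and 964 in Ptf1a+/- libraries. miR-183-3p had 297 and 207 reads in Ptf1a-/- libraries, against 229 and 275 in Ptf1a+/- libraries. The lowest was miR-96-3p. It had 243 and 160 reads in Ptf1a-/- libraries, against 149 and 183 in Ptf1a+/- libraries. Thus miR-96 gave the fewest reads of both kinds, and every library ordered the passengers as it ordered the guides: miR-182, miR-183, miR-96.

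All 6 arms together took 15.3 and 19.3% of listed counts in Ptf1a-/- libraries, against 15.5 and 15.3% in Ptf1a+/- libraries. The Ptf1a-/- mean was 17.3 ± 2.8% and the Ptf1a+/- mean 15.4 ± 0.15% (SD, n = 2 each; two-sided exact permutation p = 1, where the smallest possible is 0.333). The groups overlapped, and the excess came from Ptf1a-/- replicate 2: without that library the difference was -0.114 percentage points, against 1.89 with it. Of the larger total that the authors' CPM table was divided by, the cluster took 11.8 and 13.9% in Ptf1a-/- libraries and 12.9 and 12.8% in Ptf1a+/- libraries. In bulk retina, fewer cells of a type and less RNA per cell cannot be told apart in any of these values.

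**Figure D1:**
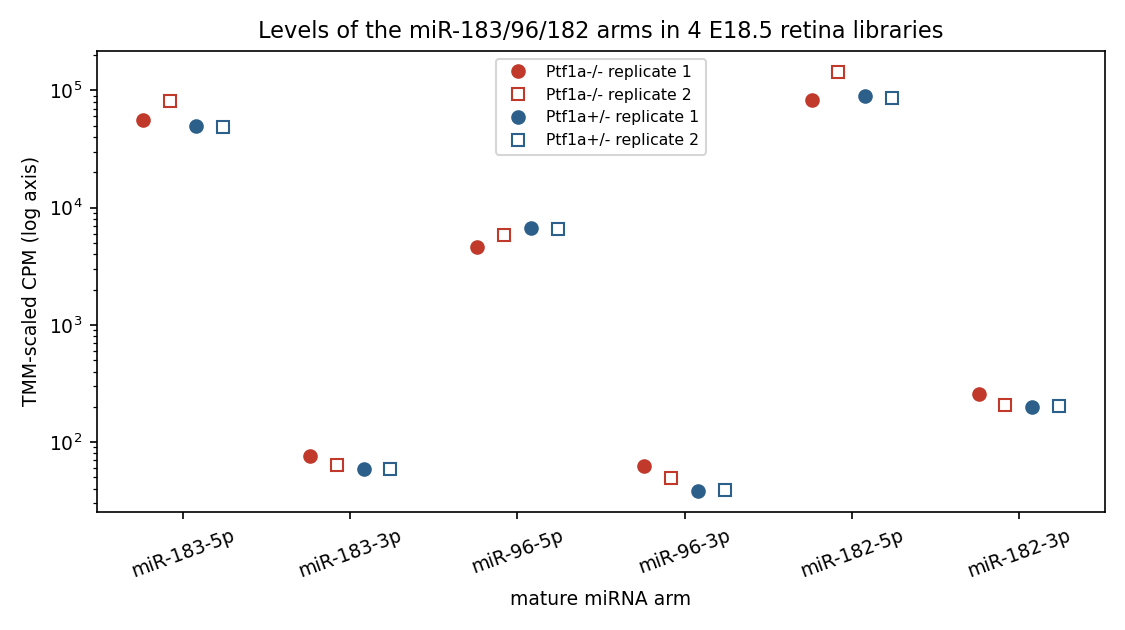
TMM-scaled CPM (log axis) of the 6 cluster arms in each of the 4 libraries, with Ptf1a-/- in red, Ptf1a+/- in blue, and filled and open symbols for replicates 1 and 2. The 5p guides lie orders of magnitude above their 3p partners, and the blue pairs nearly coincide (49840 and 49020 CPM for miR-183-5p), while the red pairs are apart (55990 and 82020 CPM).

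The genotype comparison asks whether loss of the remaining Ptf1a copy alters each arm's level. None of the 6 arms passed edgeR's quasi-likelihood test at a Benjamini-Hochberg adjusted p of 0.05 over all 584 tested miRNAs, of which 57 (9.76%) passed. Of these calls 36 were higher and 21 lower in Ptf1a-/- retina with TMM, against 4 and 12 with library size only and 2 and 27 with the total behind the deposited CPM. At an unadjusted p under 0.05 stood 1 of 6 arms in edgeR, where 148 of all 584 miRNAs (25.3%) did, and 1 of 6 in DESeq2, where 107 (18.3%) did. After adjustment DESeq2 called 42 miRNAs higher and 17 lower, and none of the 6 arms. Levels below are TMM-scaled CPM, a scaling that takes most miRNAs as unchanged, with mean ± SD over n = 2, and fold changes are Ptf1a-/- over Ptf1a+/- with SE from the fit.

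Among the guides, miR-183-5p stood at 55990 and 82020 CPM in Ptf1a-/- libraries, against 49840 and 49020 CPM in Ptf1a+/- libraries. Both Ptf1a-/- values were the higher, but they were 1.46-fold apart from each other. The log2 fold change was 0.48 ± 0.21 (95% interval -0.03 to 1.00, adjusted p = 0.221 with edgeR). It was 0.20 without Ptf1a-/- replicate 2 and 0.73 without replicate 1. miR-182-5p stood at 83310 and 144500 CPM in Ptf1a-/- libraries, against 89200 and 86780 CPM in Ptf1a+/- libraries. Here the groups overlapped, since replicate 1 of Ptf1a-/- was the lowest library and replicate 2 the highest. Its log2 fold change was 0.37 ± 0.27 (95% interval -0.30 to 1.04, adjusted p = 0.454 with edgeR). Without Ptf1a-/- replicate 2 it was -0.06, and without replicate 1 it was 0.72.

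With TMM scaling and all libraries, miR-96-5p had the opposite sign from its neighbours. miR-182-5p was negative too without Ptf1a-/- replicate 2 (-0.06) and with the total behind the deposited CPM (-0.02). miR-96-5p stood at 4616 and 5833 CPM in Ptf1a-/- libraries, against 6689 and 6547 CPM in Ptf1a+/- libraries. Both Ptf1a-/- values were below both Ptf1a+/- values, with means of 5225 ± 861 and 6618 ± 100 CPM. The log2 fold change was -0.34 ± 0.15 (95% interval -0.70 to 0.02, adjusted p = 0.210 with edgeR). It was -0.18 without Ptf1a-/- replicate 1 and -0.50 without replicate 2. This was the arm whose call depended on the scaling: scaled by library size only it was -0.54 (adjusted p = 0.0419), scaled by the total behind the deposited CPM -0.69 (adjusted p = 0.0297), and in limma on the deposited CPM -0.70 (adjusted p = 0.0257). These scalings moved the median of all 584 miRNAs to -0.18, -0.34 and -0.33 on the log2 scale, against 0 with TMM, so that relative to it miR-96-5p lay between -0.34 and -0.37 in each of the 4.

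Among the passengers, miR-96-3p stood at 62.7 and 49.3 CPM in Ptf1a-/- libraries, against 38.5 and 38.9 CPM in Ptf1a+/- libraries. Its Ptf1a-/- values were both higher, with a log2 fold change of 0.54 ± 0.18 (95% interval 0.09 to 0.99), an unadjusted p of 0.0265 and an adjusted p of 0.134 with edgeR. miR-183-3p stood at 76.7 and 63.7 CPM in Ptf1a-/- libraries, against 59.2 and 58.5 CPM in Ptf1a+/- libraries. Its log2 fold change of 0.26 ± 0.16 had an adjusted p of 0.384. miR-182-3p stood at 256.6 and 205.4 CPM in Ptf1a-/- libraries, against 198.4 and 205.1 CPM in Ptf1a+/- libraries, and replicate 2 of Ptf1a-/- was all but equal to replicate 2 of Ptf1a+/-. Its log2 fold change of 0.20 ± 0.14 had an adjusted p of 0.454. Leaving out a Ptf1a-/- library, replicate 1 or replicate 2, gave 0.35 or 0.71 for miR-96-3p, 0.12 or 0.40 for miR-183-3p and 0.02 or 0.36 for miR-182-3p. In the Ptf1a-/- pair every passenger was lower in replicate 2 than in replicate 1 (0.785- to 0.831-fold), and every guide was higher (1.26- to 1.73-fold).

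With TMM scaling, both Ptf1a-/- values were above both Ptf1a+/- values for 4 of 6 arms, where 26.7% of all tested miRNAs had this pattern, and below for 1 of 6, where 31.5% of all did. The arms share libraries and a precursor and are not independent. The pattern also rests on the scaling, since as shares of listed counts miR-183-3p, miR-96-3p and miR-182-3p overlapped between genotypes. miR-96-3p then held 0.00664 and 0.00408% of listed counts in Ptf1a-/- libraries, against 0.00409 and 0.00417% in Ptf1a+/- libraries. The median log2 fold change of the 6 arms was 0.32 with TMM, beside 0 for all tested miRNAs, and -0.04 with the total behind the deposited CPM, beside -0.34 for all. The signs of miR-183-3p, miR-182-5p and miR-182-3p were negative with that total and in limma on the deposited CPM.

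**Figure D2:**
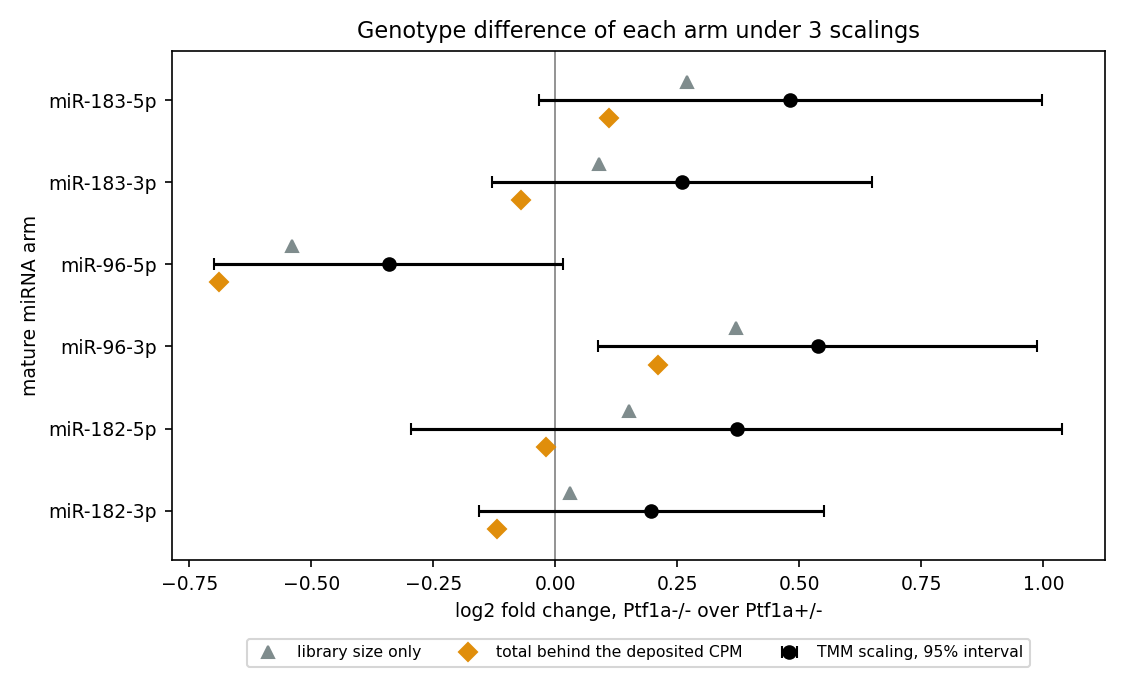
Log2 fold change of each arm, Ptf1a-/- over Ptf1a+/-, with TMM scaling (black, 95% interval of the fit), library size only (grey triangles) and the total behind the deposited CPM (orange diamonds). miR-96-5p lies left of 0 under all 3 scalings (-0.34, -0.54 and -0.69), while miR-183-3p, miR-182-5p and miR-182-3p lie on both sides of it.

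The ratio of the 2 arms of a hairpin does not depend on scaling between libraries. It was tested with edgeR in a model of library, arm and arm by genotype over 152 hairpins with enough reads of both arms. Of these, 10 (6.58%) changed at an adjusted p of 0.05, and miR-96 was the only cluster hairpin among them. The cluster hairpins were among the most one-sided. The minor arm made up 0.111% of reads for miR-183, 0.219% for miR-182 and 0.780% for miR-96, ranking 4, 7 and 26 from the most one-sided of 152, where the median hairpin had 11.6%.

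miR-96 gave 73.6 and 118 guide reads per passenger read in Ptf1a-/- libraries, against 174 and 168 in Ptf1a+/- libraries. Both Ptf1a-/- ratios were lower than both Ptf1a+/- ratios, a pattern that 21.1% of the tested hairpins had, and the 95% counting intervals of the genotypes did not overlap. The ratio fell by 0.88 ± 0.23 on the log2 scale (95% interval of the change -1.35 to -0.41, adjusted p = 0.0208 with edgeR). Expressed as the passenger's share of miR-96 reads, this was 1.34 and 0.838% in Ptf1a-/- libraries, against 0.572 and 0.591% in Ptf1a+/- libraries. The fall combined a guide with a negative fold change and a passenger with a positive one, neither of which passed alone.

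For miR-183 the ratio was 730 and 1290 in Ptf1a-/- libraries, against 843 and 838 in Ptf1a+/- libraries. The Ptf1a-/- values lay on either side of the Ptf1a+/- values, and the log2 change of 0.20 ± 0.29 (95% interval -0.41 to 0.80) had an adjusted p of 0.754. miR-182 had the same layout, with 325 and 703 guide reads per passenger read in Ptf1a-/- libraries, against 450 and 423 in Ptf1a+/- libraries. Its log2 change was 0.13 ± 0.33 (95% interval -0.54 to 0.79, adjusted p = 0.877). Both intervals span 0 and leave room for a change in either direction. Whether miR-96 differs from miR-183 or miR-182 in its arm ratio change was not tested.

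The miR-96 passenger had 149 to 243 reads per library, and the part of read number in the call was not tested. The miR-96 change kept its sign and a size of -0.53 to -1.21 when any single library was left out. Without Ptf1a+/- replicate 1 or replicate 2 it did not pass the threshold, in fits that leave 1 library of that genotype. It also missed the threshold in limma on the log2 ratios (-0.87, adjusted p = 0.206), with no filter on low counts (-0.89, adjusted p = 0.642) and with the Ptf1a+/- libraries summed into 1 (-0.88, adjusted p = 0.791).

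**Figure D3:**
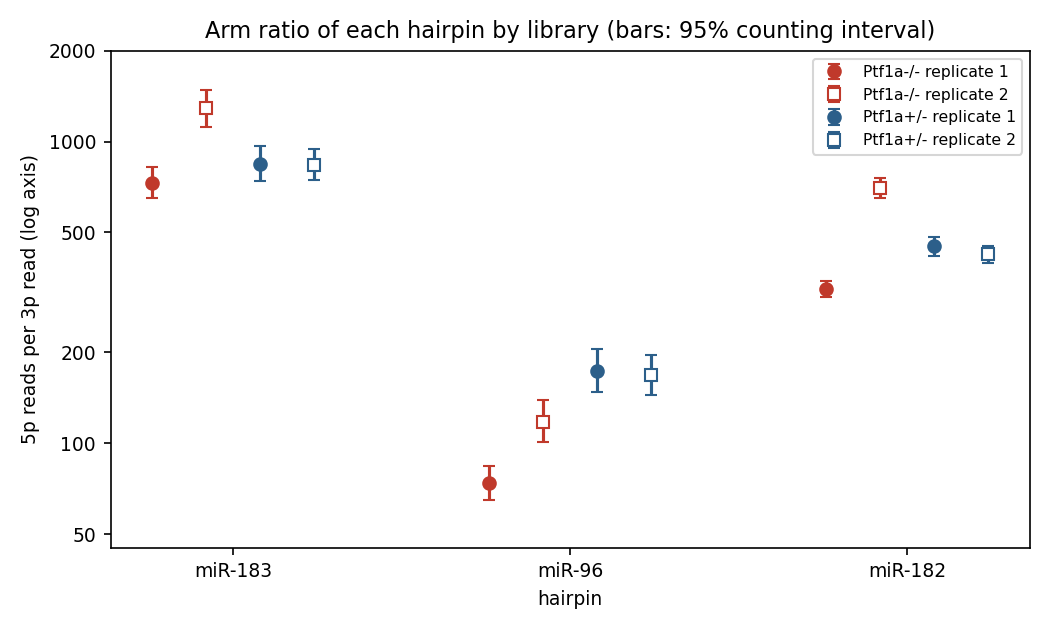
Number of 5p guide reads per 3p passenger read (log axis) of each hairpin and library, with 95% counting intervals; Ptf1a-/- is red and Ptf1a+/- blue. For miR-96 both Ptf1a-/- points (73.6 and 118) are under both Ptf1a+/- points (174 and 168), while for miR-183 and miR-182 the Ptf1a-/- points straddle the Ptf1a+/- points.

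The Ptf1a-/- replicates differed from each other in the same direction at all 3 hairpins. On the log2 scale the guide to passenger ratio of Ptf1a-/- replicate 2 exceeded that of replicate 1 by 0.82 for miR-183, 0.68 for miR-96 and 1.12 for miR-182. Over all 152 hairpins the median of this difference in major over minor arm was 0.12, and it was positive for 55.9%. Among hairpins outside the cluster with a smaller minor arm share than miR-182, it ran from -0.34 (miR-300) to 1.73 (let-7b). A difference of this size was thus not particular to the cluster. In the Ptf1a+/- pair the same differences were -0.01, -0.05 and -0.09, beside a median of 0.02. The part of this library difference in the genotype comparison was not tested.

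**Figure D4:**
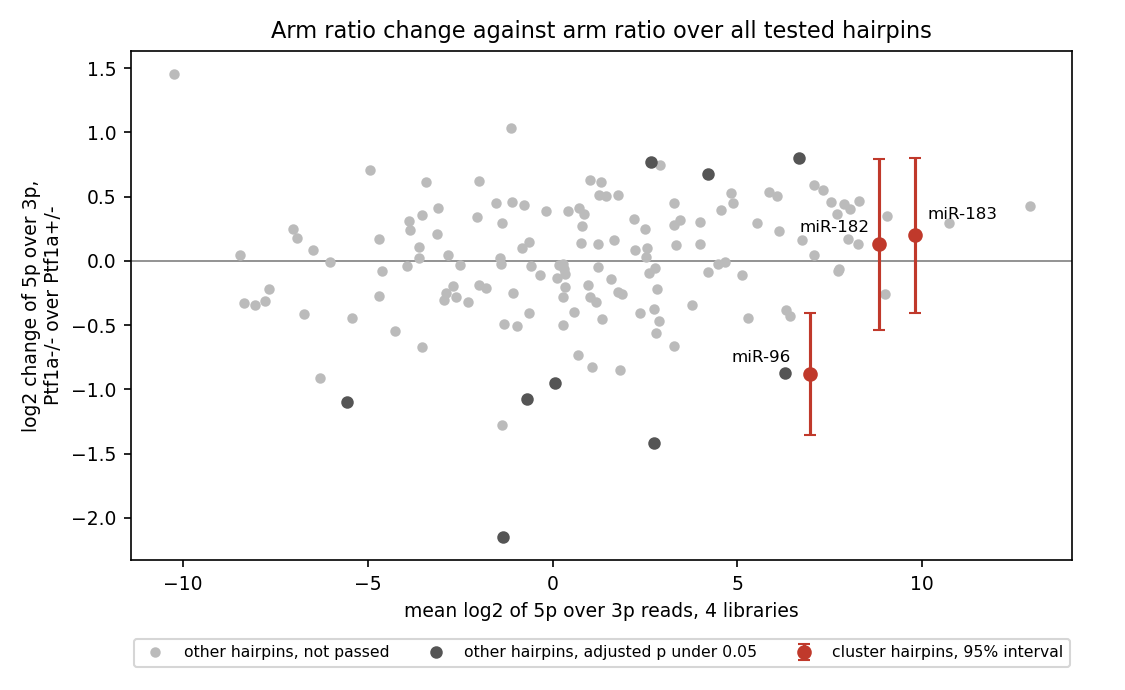
Log2 change of the 5p to 3p ratio, Ptf1a-/- over Ptf1a+/-, against the mean log2 ratio for 152 hairpins, with the cluster hairpins in red and their 95% intervals, and other hairpins that passed in dark grey. The interval of miR-96 (-1.35 to -0.41) lies under 0, and the intervals of miR-183 and miR-182 cross it.

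Since the hairpins come from a single primary transcript, the guides were also set against each other within each library, which again needs no scaling. This comparison was added after the values were seen. miR-96-5p made up 3.21 and 2.51% of the cluster's guide reads in Ptf1a-/- libraries, against 4.59 and 4.6% in Ptf1a+/- libraries. Per 100 miR-183-5p reads there were 8.25 and 7.11 miR-96-5p reads in Ptf1a-/- libraries, against 13.4 and 13.4 in Ptf1a+/- libraries. The Ptf1a-/- values were far under the Ptf1a+/- values, although Mir96 and Mir183 lie 116 bp apart. Per 100 miR-182-5p reads there were 5.54 and 4.04 miR-96-5p reads in Ptf1a-/- libraries, against 7.5 and 7.54 in Ptf1a+/- libraries. Again the groups did not overlap.

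The same edgeR model was fitted to 83 pairs of adjacent hairpins (same strand, under 10 kb apart), each represented by its more abundant arm among those with a single RefSeq position. For hairpins whose guide is shared with a paralog or has no RefSeq entry, this is the passenger. The ratio of miR-96-5p to miR-183-5p fell by 0.81 ± 0.14 on the log2 scale (95% interval of the change -1.16 to -0.46, adjusted p = 0.0200), ranking 5 of 83 by p. The log2 change of miR-96-5p to miR-182-5p was -0.67 ± 0.19 (95% interval -1.13 to -0.21, adjusted p = 0.0578). Of the 83 pairs 12 (14.5%) passed, and 57.8% had genotypes that did not overlap. In the 63 pairs in which each arm is the more abundant of its hairpin, 12 (19%) passed and 55.6% did not overlap, and the ratio of miR-96-5p to miR-183-5p had an adjusted p of 0.0261. With the replicate number as a block no pair passed (12 without it; at the miR-96-5p to miR-183-5p ratio, adjusted p = 0.123). The call for that ratio was likewise lost with the Ptf1a+/- libraries summed (adjusted p = 0.427), without Ptf1a+/- replicate 1 (0.488) and without Ptf1a+/- replicate 2 (0.475), while the log2 change stayed between -0.91 and -0.70.

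The ratio of miR-183-5p to miR-182-5p, which are not adjacent, was nearly level in 3 libraries. There were 67.2 and 56.8 miR-183-5p reads per 100 miR-182-5p reads in Ptf1a-/- libraries, against 55.9 and 56.5 in Ptf1a+/- libraries (two-sided exact permutation p = 0.333, the smallest possible). Replicate 1 of Ptf1a-/- was the high value. Both Ptf1a-/- values were above both Ptf1a+/- values, by little for replicate 2.

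Passengers showed the reverse order for miR-96. Per 100 miR-182-3p reads there were 24.4 and 24 miR-96-3p reads in Ptf1a-/- libraries, against 19.4 and 19.0 in Ptf1a+/- libraries. Per 100 miR-183-3p reads there were 81.8 and 77.3 in Ptf1a-/- libraries, against 65.1 and 66.5 in Ptf1a+/- libraries. Both Ptf1a-/- values were the higher for each ratio, while the 95% counting intervals of single libraries overlapped between genotypes (20.1 to 28.5 in Ptf1a-/- replicate 2 and 16.1 to 22.3 in Ptf1a+/- replicate 2 for the first). Over the libraries the two-sided exact permutation p was 0.333 for each, the smallest possible. miR-183-3p per 100 miR-182-3p reads was 29.9 and 31.0 in Ptf1a-/- libraries, against 29.8 and 28.5 in Ptf1a+/- libraries. Here too both Ptf1a-/- values were the higher, by little for replicate 1. Thus relative to both neighbours the miR-96 guide had lower values and the miR-96 passenger higher values in Ptf1a-/- retina. The genotypes also did not overlap in the ratios of miR-183 to miR-182 arms, nor in 57.8% of the 83 adjacent pairs above. Non-overlap was thus not particular to miR-96, and the passenger ratios between hairpins were not tested with edgeR.

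**Figure D5:**
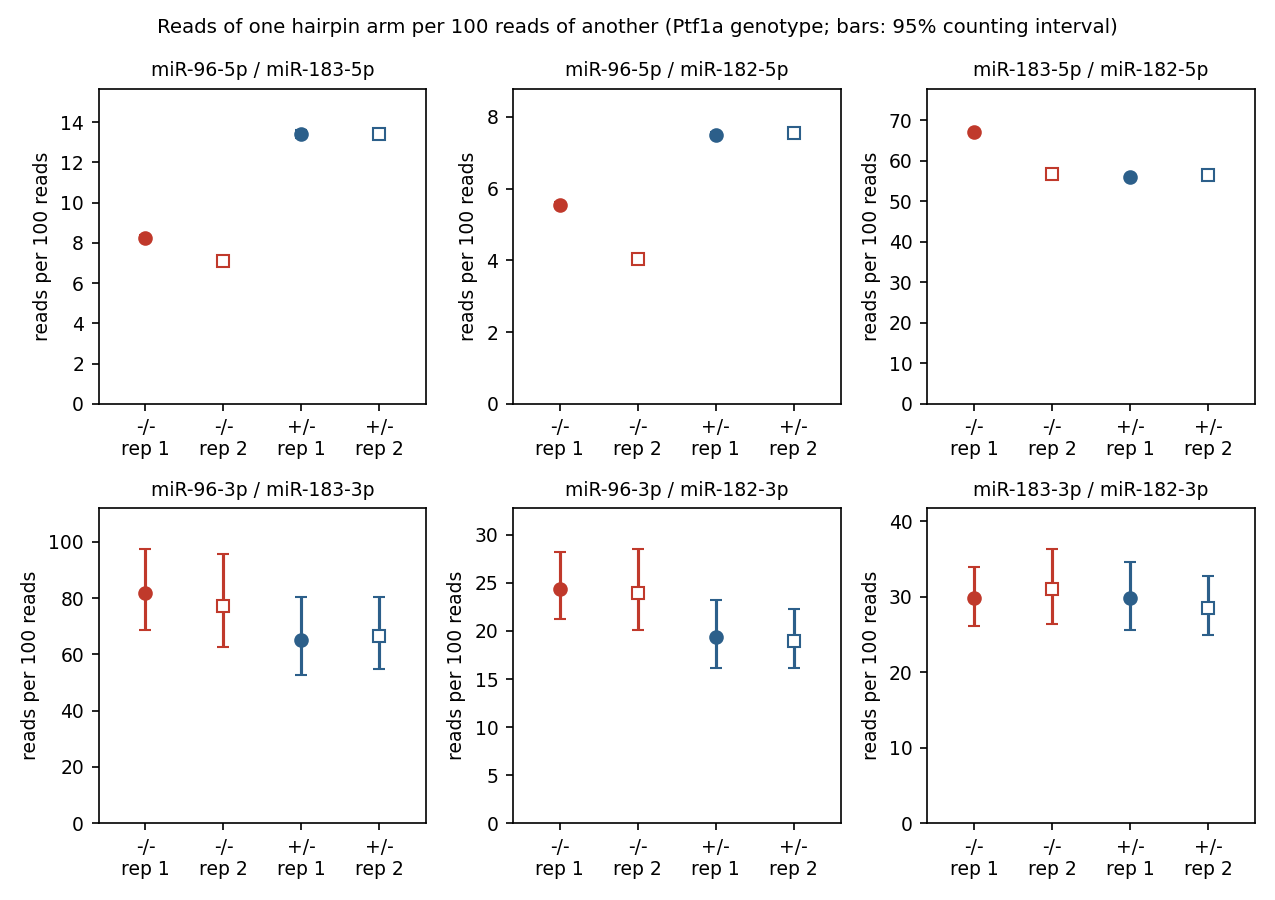
Reads of an arm per 100 reads of an arm from another hairpin of the cluster, with guides above, passengers below, Ptf1a-/- left of Ptf1a+/- and 95% counting intervals (smaller than the symbols for guides). The miR-96-5p ratios are lower in both Ptf1a-/- libraries (8.25 and 7.11 against 13.4 and 13.4 per 100 miR-183-5p reads), and the miR-96-3p ratios are higher with overlapping intervals.

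The authors' deposited table of the most frequent sequence per arm shows which form of each molecule dominated. For miR-183-5p and miR-96-5p it was the RefSeq mature sequence in all 4 libraries, so the seeds shown above are the ones sequenced. For miR-182-5p it was 1 base shorter at the 3′ end in all 4 libraries, at 24 nt, with the seed unaltered. Among the passengers, miR-182-3p was 1 base longer at the 3′ end in all 4 libraries, by a base that the hairpin holds. miR-183-3p began 1 base later than the RefSeq form in all 4 libraries, which moves its seed. The forms are shown as DNA letters, as deposited, with bases 2 to 8 of the sequenced form in capitals.
miR-182-5p, all libraries: tTTGGCAAtggtagaactcacacc
miR-182-3p, all libraries: gTGGTTCTagacttgccaacta
miR-183-3p, Ptf1a-/- replicate 1 and Ptf1a+/- replicate 1: tGAATTACcgaagggccata
miR-183-3p, Ptf1a-/- replicate 2: tGAATTACcgaagggccataa
miR-183-3p, Ptf1a+/- replicate 2: tGAATTACcgaagggccataaa
miR-96-3p, Ptf1a-/- replicate 2: cAATCATGtgtagtgccaatatt

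The 3′ end of miR-183-3p varied between 20 and 22 nt with no order by genotype. miR-96-3p had the RefSeq form in 3 libraries, and in Ptf1a-/- replicate 2 its most frequent form carried an added T that the hairpin does not hold. In the arms with several forms the start of the molecule was the same in both genotypes, so the dominant seed of each of the 6 arms was shared by Ptf1a-/- and Ptf1a+/- retina. The table gives no read count per form.

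The guides were compared with all tested miRNAs by the shape of their profile, as the root mean square difference of log2 CPM centred on each miRNA's mean over the 4 libraries. Nearest to miR-183-5p were miR-770-3p (0.063), miR-34c-3p (0.065) and miR-122-5p (0.07), with miR-182-5p at rank 11 (0.11). Nearest to miR-182-5p were miR-219a-1-3p (0.027), miR-27b-5p (0.06) and let-7c-5p (0.061), with miR-183-5p at rank 6 (0.11). miR-183-5p and miR-182-5p thus had much the same profile, high in Ptf1a-/- replicate 2. miR-96-5p was nearest to miR-423-5p (0.018), miR-1306-3p (0.022) and miR-129-5p (0.032), and its 2 neighbours in the genome were far off, miR-182-5p at rank 366 (0.37) and miR-183-5p at rank 403 (0.41). With 4 libraries such likeness is a description only.

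In adult mouse retina miR-204 and miR-211 are light-regulated together with the cluster. Of their 4 arms 3 were tested, and miR-204-3p alone passed, where 9.76% of all tested miRNAs did. It stood at 251.9 and 289.1 CPM in Ptf1a-/- libraries, against 396.5 and 391.4 CPM in Ptf1a+/- libraries, and fell by 0.54 ± 0.12 on the log2 scale (adjusted p = 0.0436 with edgeR). miR-204-5p, the guide of that hairpin, stood at 2944 and 3266 CPM in Ptf1a-/- libraries, against 3283 and 3325 CPM in Ptf1a+/- libraries (log2 fold change -0.09, adjusted p = 0.686). The 5p to 3p ratio of miR-204 did not pass the arm ratio test (log2 change 0.45, adjusted p = 0.219 with edgeR). miR-211-5p, at 7.74 and 11.1 CPM in Ptf1a-/- libraries against 10.9 and 12.8 CPM in Ptf1a+/- libraries, differed by -0.35 on the log2 scale (adjusted p = 0.509). The median of the 3 tested arms was -0.35, beside 0 for all tested miRNAs. All 3 were negative, as was miR-96-5p of the cluster (-0.34), while miR-183-5p and miR-182-5p were positive with TMM scaling. None of these guides passed with TMM scaling, and miR-182-5p was -0.02 with the total behind the deposited CPM.

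Markers of other cells were read beside the cluster. None of the 6 neural retina arms passed, and their median log2 fold change was -0.04. By arm these were 0.38 for miR-9-5p, 0.30 for miR-124-5p, 0.07 for miR-9-3p, -0.15 for miR-124-3p, -0.44 for miR-181b-5p and -0.45 for miR-181a-5p, with adjusted p-values of 0.0844 for both miR-181 arms and 0.288 to 0.781 for the others. Of 3 tested lens and surface epithelium markers, miR-200b-3p alone passed, where 9.76% of all tested miRNAs did. It stood at 0.258 and 0.924 CPM in Ptf1a-/- libraries, against 6.46 and 6.60 CPM in Ptf1a+/- libraries. Its Ptf1a-/- values were at or under the level of 3 counts (0.774 and 0.924 CPM). miR-203-3p had a log2 fold change of 0.30 and miR-184-3p of -0.44 (adjusted p = 0.244 and 0.389 with edgeR). This whole list summed to 229 and 302 CPM in Ptf1a-/- libraries, against 307 and 294 CPM in Ptf1a+/- libraries. No tested marker of blood (2), vessels (3) or striated muscle (3) passed. Vessel markers summed to 352 and 587 CPM in Ptf1a-/- libraries, against 594 and 615 CPM in Ptf1a+/- libraries, and blood markers to 67.6 and 99.5 CPM in Ptf1a-/- libraries, against 80.5 and 75.9 CPM in Ptf1a+/- libraries. Muscle markers summed to 65.3 and 70.2 CPM in Ptf1a-/- libraries, against 49.2 and 51.4 CPM in Ptf1a+/- libraries. No listed marker was at 0 in all 4 libraries. The part of these cell types in the cluster's values was not tested.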

How the data were processed

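Small RNA of 18 to 30 nt was gel-purified from 1 µg of total retina RNA and made into libraries with a New England Biolabs kit, per the labels' protocols; the submitters' processing notes name bcl2fastq 2.20.0.422. Deposited values per mature miRNA are estimated counts (5.73 to 7.84% of values per library are not whole; all cluster values are). The deposited CPM are those counts divided by a total per library that exceeds the listed counts: 22.7 and 27.9% of it is not listed in Ptf1a-/- libraries and 17.1 and 16.3% in Ptf1a+/- libraries. The remaining table holds the most frequent sequence per miRNA, written against miRBase22 per the file headers. No molecular identifiers are described, so intervals cover counting error only. Aligner, counter and genome build: not given in the sources used here.

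Estimated counts were rounded, where the design had assumed whole counts, and tested with edgeR 4.0.16 (R 4.3.3, quasi-likelihood F test, TMM, genotype as the only term) for the 584 miRNAs that reached 10 counts in 2 libraries. Counts of both arms per library gave the arm ratio test. Counting intervals are exact (Clopper-Pearson, 95%). limma 3.58.1 and DESeq2 1.42.0 gave alternatives. Scripts were tested on simulated data. Members, lists and tests were chosen with earlier results of these data known. Named miRNAs are the 6 arms, any miRNA sharing bases 2 to 7 with a guide, the 3 nearest profiles of each guide and the light-regulated partners. The marker miRNAs named beside these (the neural retina list and the tested lens and surface epithelium markers) were named after their values were seen.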

Additional observations from a re-analysis of the deposited data

How the results depend on the processing

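Of 127 alternative values of single arms or ratios, 94 kept their direction and side of the threshold. The 57 calls over all miRNAs became 16 with library size only, 29 with the total behind the deposited CPM, 21 with no filter, 28 in limma on the deposited CPM, 12 with the replicate block and 1 with the Ptf1a+/- libraries summed; leaving out a library gave 1 to 274. The calls among the 6 arms (0) became 1 with library size only, with the total behind the deposited CPM and in limma (miR-96-5p each time), and 0 to 6 on leaving out a library. With the total behind the deposited CPM and in limma, miR-183-3p was -0.07 and -0.09, miR-182-5p -0.02 and -0.03, and miR-182-3p -0.12 and -0.16; leaving out a library gave miR-182-5p -0.06 to 0.72. Without a Ptf1a-/- library only the Ptf1a+/- pair sets the spread, hence the many calls (262 and 274).

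The 10 arm ratio calls became 3 in limma and 0 with no filter or the Ptf1a+/- libraries summed, and 0 to 44 on leaving out a library; the call for a cluster hairpin was lost in those 3 settings (0), and leaving out a library gave 0 to 3. The miR-96 change was -0.87 in limma, -0.89 with no filter, -0.88 with the Ptf1a+/- libraries summed and -1.21 to -0.53 on leaving out a library; the miR-183 and miR-182 changes then ran from -0.20 to 0.62 and from -0.42 to 0.69. The 12 neighbour calls became 7 in limma, 0 with the replicate block, 1 with the Ptf1a+/- libraries summed and 1 to 38 on leaving out a library; those of the cluster (1) became 0, 0 and 0 to 2 in the last 3. miR-96-5p per miR-183-5p was -0.81 with the block and with the Ptf1a+/- libraries summed, and -0.91 to -0.70 on leaving out a library. Without Ptf1a+/- replicate 1 or 2 the spread comes from the Ptf1a-/- pair. The summed share of the cluster was 1.78 to 3.89 percentage points higher on leaving out a library, except -0.114 without Ptf1a-/- replicate 2. Causes of the other shifts were not tested.

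The labels give replicate numbers without saying what they share; deviations of same-numbered libraries correlated at r = 0.0503 over 584 miRNAs, across which miRNAs are not independent. The block kept the miR-96 arm ratio call (-0.88, adjusted p = 0.0193) and changed no call among the 6 arms. Counts of 149 to 994 limit the passenger ratios.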
